A study of Mus musculus with 2 samples.

Results

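The 4 mammalian *Hox* clusters were examined in the reduced representation bisulfite sequencing (RRBS) data of *Rex1*-high and *Rex1*-low mouse embryonic stem cells (ESCs). Their members were taken by position, as every CpG in 4 windows of the mm9 genome, which held *Hoxa* (chr6:52100000-52215000, 115 kb), *Hoxb* (chr11:96050000-96232000, 182 kb), *Hoxc* (chr15:102745000-102872000, 127 kb) and *Hoxd* (chr2:74500000-74606000, 106 kb). Of 5754 CpG positions listed there in either library, 4081 had at least 5 calls in both libraries, out of 1707425 such positions in the whole data. The windows span 38 *Hox* genes, 10 in *Hoxa*, 10 in *Hoxb*, 9 in *Hoxc* and 9 in *Hoxd*. Both libraries came from 1 line of E14 ESCs on a 129/Ola background, in which a destabilised GFP reporter sits at *Rex1* (*Zfp42*), a gene expressed in naive ESCs. Cells were kept with LIF and serum on gelatin, and populations with high or low reporter signal gave 1 library each. Methylation calls hold no expression markers to check the sorted states. There was no replicate check, so every test below compares these 2 libraries and not the states, and every interval covers counting error only.

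*Hox* genes encode homeodomain transcription factors that give cells along the head to tail axis their positional identity. Within a cluster they lie in the order in which they are switched on, from anterior to posterior genes, and all are transcribed in the same direction. In ESCs the clusters are known as long domains of CpG islands held silent by Polycomb complexes, and CpG islands are generally free of DNA methylation, the mark measured here.

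Promoter sequences of 22 of the 38 genes were at hand (24 sequences from RefSeq, GRCm38.p6, each 250 bases before to 50 bases after a start site), and they could be laid on the measured CpGs by the spacing of their own CpGs. This placed the start sites of 14 genes with at least 5 listed positions (*Hoxa5*, *Hoxa6*, *Hoxa10*, *Hoxa11*, *Hoxa13*, *Hoxb1*, *Hoxb8*, *Hoxd1*, *Hoxd3*, *Hoxd9*, *Hoxd10*, *Hoxd11*, *Hoxd12* and *Hoxd13*). A further 4 (*Hoxa7*, *Hoxb4*, *Hoxc4* and *Hoxd4*) were placed with 3 or 4 listed positions, a rule added after the values were seen. *Hoxa2*, *Hoxa3*, *Hoxa9* and *Hoxd8* could not be placed. The other 16 genes were *Hoxa4*, *Hoxb2*, *Hoxb3*, *Hoxb5*, *Hoxb6*, *Hoxb7*, *Hoxb9*, *Hoxb13*, *Hoxc5*, *Hoxc6*, *Hoxc8*, *Hoxc9*, *Hoxc10*, *Hoxc11*, *Hoxc12* and *Hoxc13*. These were measured only through the CpGs of their windows. For 3 promoters the 250 bases upstream of the start site are shown with the CpGs measured in both libraries in capitals, because they mark the extremes of the results below. Among the promoters placed with at least 5 listed positions and 3 or more measured CpGs, *Hoxd12* had the largest difference between the libraries, *Hoxa13* the lowest methylation and *Hoxa5* the most measured CpGs. The RRBS fragments end at MspI sites (CCGG) and TaqI sites (TCGA), so a measured CpG at a fragment end reads cCGg or tCGa.

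Hoxd12: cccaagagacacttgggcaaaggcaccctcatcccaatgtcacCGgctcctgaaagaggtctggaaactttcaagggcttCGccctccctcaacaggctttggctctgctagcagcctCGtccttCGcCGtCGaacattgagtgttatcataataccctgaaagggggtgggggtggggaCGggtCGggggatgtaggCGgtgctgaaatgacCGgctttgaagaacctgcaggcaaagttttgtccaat
Hoxa13: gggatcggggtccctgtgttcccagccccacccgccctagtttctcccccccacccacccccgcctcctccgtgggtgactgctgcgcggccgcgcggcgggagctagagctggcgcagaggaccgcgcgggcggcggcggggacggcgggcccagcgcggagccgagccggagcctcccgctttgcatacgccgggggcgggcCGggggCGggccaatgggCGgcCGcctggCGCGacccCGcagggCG
Hoxa5: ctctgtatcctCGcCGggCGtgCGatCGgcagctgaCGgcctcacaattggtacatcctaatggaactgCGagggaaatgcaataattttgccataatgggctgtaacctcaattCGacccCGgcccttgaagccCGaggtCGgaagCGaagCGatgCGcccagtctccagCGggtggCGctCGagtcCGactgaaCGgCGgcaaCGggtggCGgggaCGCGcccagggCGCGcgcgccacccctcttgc

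The *Hoxd12* stretch lies on the plus strand at chr2:74512821-74513070 of the deposited mm9 coordinates, and all 10 of its CpGs were measured. The *Hoxa13* stretch lies on the minus strand at chr6:52210876-52211125, and 8 of its 35 CpGs were measured, all in the part next to the start site. The *Hoxa5* stretch lies on the minus strand at chr6:52154588-52154837, and 26 of its 28 CpGs were measured. CCGG, searched on both strands, occurs in 52.8% of the 32851 promoter sequences of the table and in 79.2% of the 24 *Hox* sequences, and TCGA in 22.0% and 45.8%.

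The windows were measured densely and deeply. They held 7.70 CpGs per kb against 1.38 in the 200 kb on each side of every window, which served as the neighbouring comparison (2201 CpGs). The *Rex1*-high library gave 133453 calls on the 4081 CpGs, with a median of 30 per CpG, and the *Rex1*-low library gave 164084, with a median of 32. *Hoxa* had 1169 CpGs, *Hoxb* 1089, *Hoxc* 775 and *Hoxd* 1048.

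The *Hox* windows were mostly unmethylated in both libraries. The mean methylation level of a CpG was 21.7% in *Rex1*-high and 26.9% in *Rex1*-low cells, an increase of 5.18 percentage points, and the median was 6.25% and 10.0%. In the flanks the mean was 35.9% and 49.7%, an increase of 13.8 points, and over all CpGs it was 39.2% and 54.2%, an increase of 15.0 points. The difference between windows and flanks was not tested, since both come from the same 2 libraries. The pooled share of methylated calls in the windows was 23.0% (95% Wilson interval 22.8% to 23.3%) in *Rex1*-high and 26.3% (26.1% to 26.5%) in *Rex1*-low cells, so the intervals did not overlap. In the flanks the pooled share was 34.5% and 40.4%, an increase of 5.88 points against 3.25 in the windows, so the gap between flanks and windows was smaller on pooled calls than on means over CpGs.

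The 4 clusters lay close together. *Hoxd* was the least methylated, with a mean of 18.96% in *Rex1*-high and 24.0% in *Rex1*-low cells, and *Hoxa* followed with 20.1% and 24.3%. *Hoxb* went from 23.7% to 30.3% and *Hoxc* from 24.9% to 29.6%. The increase was 4.22 points in *Hoxa*, 4.75 in *Hoxc*, 5.09 in *Hoxd* and 6.59 in *Hoxb*, whereas the increase in the flanks of the same clusters was between 13.2 (*Hoxc*) and 14.6 points (*Hoxd*). On means over CpGs each window thus moved less than its own flanks. On pooled calls the gap was smallest in *Hoxb*, where the window went from 24.1% to 29.3% and its flanks from 34.0% to 39.6%.

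Most CpGs of the windows stayed low in both libraries. In all, 2393 of the 4081 (58.6%) were at or under 20% in both, against 36.3% in the flanks and 33.5% of all CpGs. CpGs at or above 80% made up 2.84% of the windows in *Rex1*-high and 8.65% in *Rex1*-low cells, whereas in the flanks this share went from 8.91% to 34.4%. The plot of CpG levels shows that the flanks gained a mode at 90% or more in *Rex1*-low cells that was small in the windows.

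**Figure D1:**
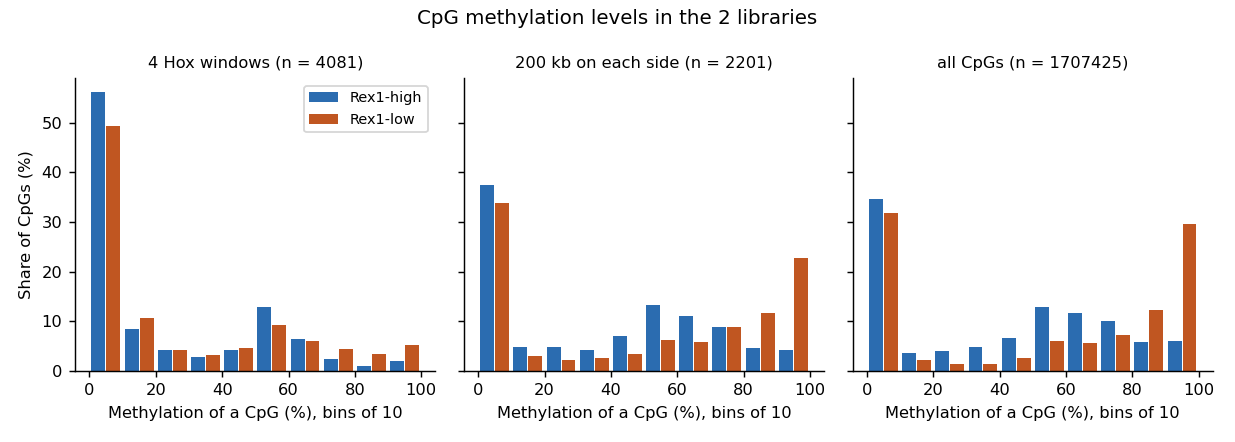
Share of CpGs (vertical axis, percent) in bins of 10 percentage points of methylation (horizontal axis) for the *Hox* windows, their flanks and all CpGs measured; blue bars, *Rex1*-high; orange bars, *Rex1*-low, 1 library each. CpGs at 90% or more went from 1.94% to 5.24% of the windows and from 4.27% to 22.8% of the flanks.

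For single CpGs, Fisher's exact test (two-sided) was adjusted over all CpGs by Benjamini-Hochberg, and an adjusted p under 0.05 counted as a call. In the windows 187 CpGs (4.58%) were called more methylated in *Rex1*-low cells, where 12.5% of all CpGs and 11.7% of flank CpGs were called. The other direction was called at 18 window CpGs (0.441%), against 0.239% of all CpGs. These 18 became 2 without CpGs whose rows disagreed, 2 with rows merged first and 1 after thinning to equal depth. *Hoxb* held 69 of the 187, *Hoxa* 40, *Hoxc* 39 and *Hoxd* 39. A change from at most 20% to at least 50% was seen at 62 window CpGs (1.52%, against 3.06% of all CpGs), and the reverse at 35 (0.858%, against 0.429%).

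To see where within the clusters methylation changed, the genome was cut into tiles of 2500 bp with at least 3 measured CpGs, and calling a tile required a difference of at least 10 points and Fisher's exact test on its summed calls with an adjusted p under 0.05. Of 152 tiles in the windows, 48 (31.6%) were called more methylated in *Rex1*-low cells and 0 less methylated, while 75.5% of all 162599 tiles were called more and 0.0326% less methylated. In the flanks 138 of 195 tiles (70.8%) were called more methylated. By cluster the called tiles numbered 7 of 34 in *Hoxa*, 20 of 49 in *Hoxb*, 8 of 39 in *Hoxc* and 13 of 30 in *Hoxd*. The level was higher in *Rex1*-low cells in 136 of the 152 tiles. This held for 157422 of all 162599 tiles and for 191 of 195 flank tiles, larger shares than in the windows. The median difference in the windows was 5.88 points, against 23.5 points over all tiles. A stratified test that compares each CpG with itself, the Cochran-Mantel-Haenszel test, gave an adjusted p under 0.05 for 46 of the 48 called tiles.

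**Figure D2:**
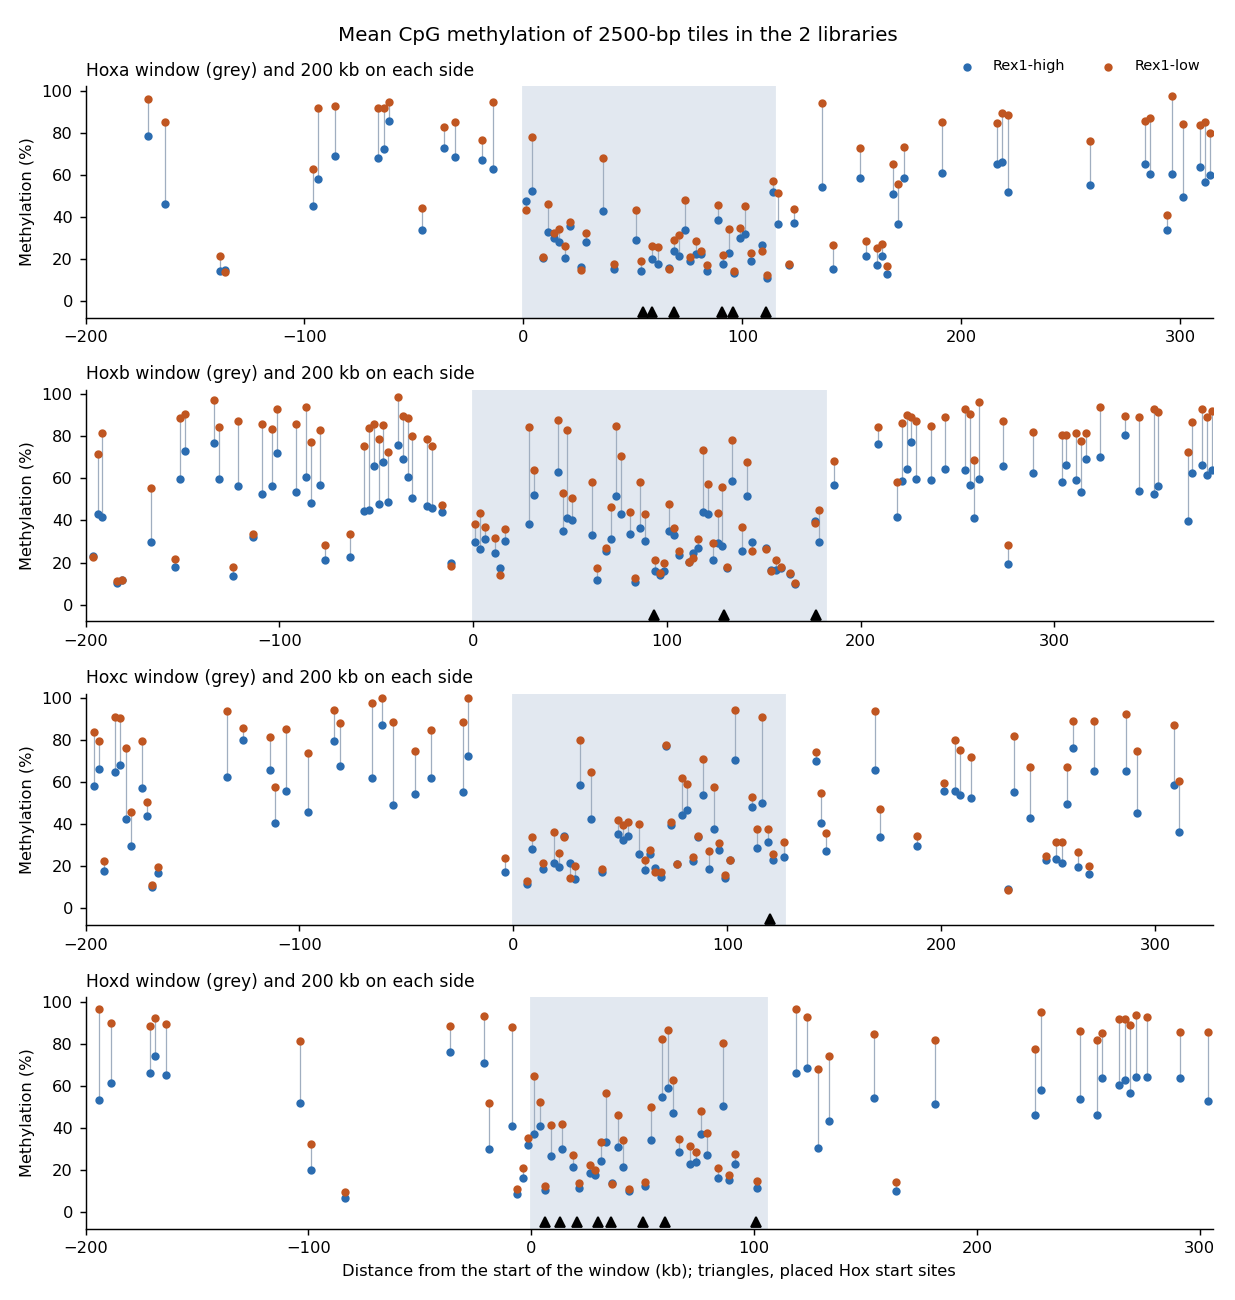
Mean CpG methylation (vertical axis, percent) of each 2500-bp tile against its distance from the start of the window (horizontal axis, kb) for the 4 clusters (grey) and the 200 kb on each side; blue, *Rex1*-high; orange, *Rex1*-low, joined by a line; black triangles mark placed *Hox* start sites. Tiles of the windows had a median of 26.7% in *Rex1*-high and 33.9% in *Rex1*-low cells, and tiles of the flanks 55.6% and 82.8%.

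The called tiles were mostly the CpG-poorer and already partly methylated ones. No tile of the windows that was under 20% in *Rex1*-high cells was called (0 of 43, against 5.28% of all tiles at that level). Of the tiles at 20% to 40%, 26 of 81 were called (32.1%, against 61.7% of all tiles at that level), and of those at 40% to 60%, 20 of 25 (against 90.4% of all tiles). At 60% or more 2 of 3 were called (against 81.7%). By CpG number, 8 of 18 tiles with 3 to 4 CpGs were called (44.4%, background 77.9%) and 16 of 21 with 5 to 9 (76.2%, background 88.5%). Tiles with 10 to 19 CpGs were called in 16 of 42 cases (38.1%, background 76.2%), and those with 20 to 39 in 7 of 45 (15.6%, background 24.4%). Among the densest tiles, 1 of 17 with 40 to 79 CpGs was called (5.88%, background 2.99%) and 0 of 9 with 80 or more (background 0.388%). The shares thus lay below the background in each class of fewer than 40 CpGs. Tiles of 10 to 19 CpGs had a median difference of 8.68 points in the windows, 14.0 in the flanks and 22.9 over all tiles.

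**Figure D3:**
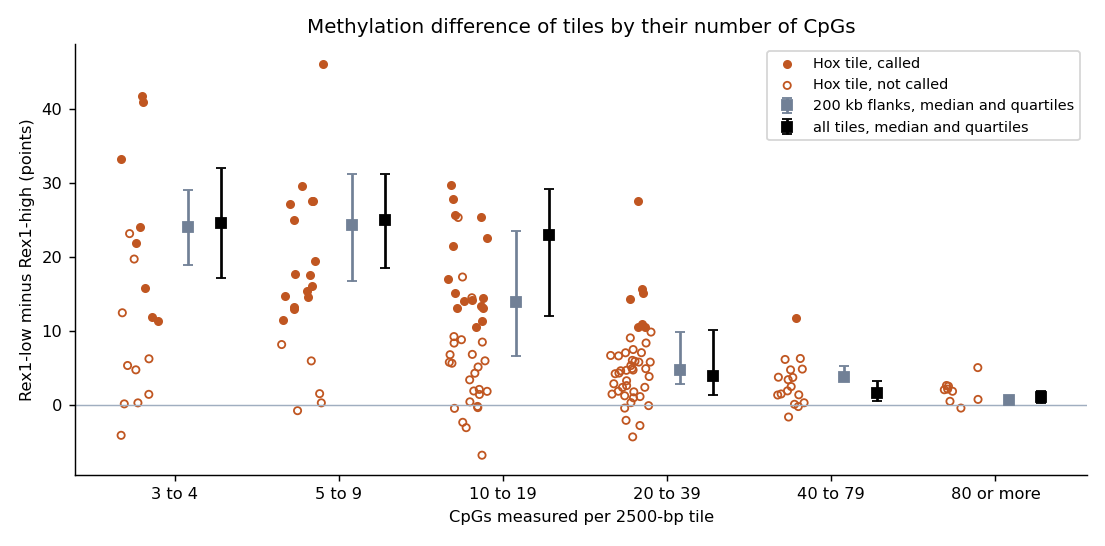
Difference in mean methylation, *Rex1*-low minus *Rex1*-high (vertical axis, percentage points), of 2500-bp tiles by the number of CpGs measured (horizontal axis); orange points, tiles of the *Hox* windows, filled where called; squares with bars, median and quartiles of the flanking tiles (grey) and of all tiles (black). In tiles of 3 to 4 CpGs the *Hox* median was 12.2 points and that of all tiles 24.6; in tiles of 80 or more CpGs they were 2.09 and 1.07.

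The largest tile differences in *Hoxb* lay upstream of *Hoxb8*. The 93.2 kb between the window start and the *Hoxb8* start site, which hold *Hoxb13* and *Hoxb9*, had 12 of 22 tiles called (75.5% of all tiles were), and their mean CpG level went from 27.3% to 37.8%. There 42 of 414 CpGs (10.1%, against 12.5% of all CpGs) were called more methylated and 0 less methylated. Both shares were below the background. The largest difference of any *Hox* tile was at chr11:96077501-96080000, where 9 CpGs went from 38.3% to 84.4% (adjusted p = 1.73e-09 by Fisher's exact test; 188 and 104 calls). The tile at chr11:96097501-96100000 went from 41.0% to 82.8% on 3 CpGs, and that at chr11:96122501-96125000 from 51.8% to 84.9% on 4 CpGs. The next tile, at chr11:96125001-96127500, was chosen after its values were seen because it had 23 CpGs, and it went from 43.1% to 70.6% (adjusted p = 1.95e-21 by Fisher's exact test; 558 and 502 calls).

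Between the start sites of *Hoxb8* and *Hoxb4*, a stretch of 36.4 kb with *Hoxb7*, *Hoxb6*, *Hoxb5* and *Hoxb3*, the mean went from 22.5% to 28.3% and 4 of 14 tiles were called. The tile at chr11:96167501-96170000 in that stretch went from 43.8% to 73.3% on 6 CpGs, and that at chr11:96177501-96180000, which holds the *Hoxb4* start site, from 28.04% to 55.9% on 11 CpGs. Between *Hoxb4* and *Hoxb1*, where *Hoxb2* lies, the mean was 19.7% and 21.6%, and 4 of 323 CpGs (1.24%) were called more methylated. In that stretch 3 of 12 tiles were called, the largest difference being 19.4 points. Over all tiles the share called was 75.5%, above that of both stretches. Past the *Hoxb1* start site, 27 CpGs up to the window end had means of 31.0% and 43.5%, and the 1 tile there was called, with a difference of 15.1 points. The *Hoxb* tile that was highest in *Rex1*-high cells lay upstream of *Hoxb8*, at chr11:96092501-96095000, and went from 62.9% to 87.9% on 9 CpGs.

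In *Hoxd*, where 8 of 9 start sites were placed, methylation was lowest next to the genes. Within 1 kb of a placed start site, 542 CpGs had a mean of 14.4% in *Rex1*-high and 17.6% in *Rex1*-low cells, with medians of 1.85% and 2.78%. Levels did not rise steadily with distance. At 1 to 2 kb, 60 CpGs had means of 30.2% and 38.7%, and at 2 to 4 kb, 44 CpGs had 37.3% and 50.3%. At 4 to 8 kb, 170 CpGs had means of 18.1% and 22.8% and medians of 3.85% and 3.84%. Of these, 90 lay in the tile at chr2:74542501-74545000, with 9.96% and 10.7%. That tile lies between *Hoxd9* and *Hoxd3*, where the start site of *Hoxd8* was not placed, so distance to *Hoxd8* was not counted. Beyond 8 kb, 232 CpGs had means of 24.0% and 31.2%. The stretch between *Hoxd9* and *Hoxd3*, which holds *Hoxd8*, was among the lowest, at 12.9% and 14.6% over 213 CpGs. The 41.0 kb between *Hoxd4* and *Hoxd1* were higher, at 25.5% and 33.4%, with 5 of 11 tiles called (75.5% of all tiles were). The largest *Hoxd* difference lay there, at chr2:74585001-74587500, where 11 CpGs went from 50.5% to 80.2% (adjusted p = 4.40e-13 by Fisher's exact test).

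Next to *Hoxd4*, an anterior gene active in the hindbrain, the tiles on both sides of the start site were called. The tile at chr2:74557501-74560000 went from 54.8% to 82.3% on 8 CpGs, and that at chr2:74560001-74562500 from 58.9% to 86.4% on 5 CpGs. The latter was the highest *Hoxd* tile in *Rex1*-high cells. A tile further upstream, at chr2:74552501-74555000, went from 34.2% to 49.97% on 4 CpGs. The first tile of the window, upstream of *Hoxd13*, went from 37.2% to 64.4% on 7 CpGs. The only called *Hox* tile with 40 or more CpGs held the *Hoxd12* start site: at chr2:74512501-74515000, 52 CpGs went from 29.8% to 41.6% (adjusted p = 2.31e-13 by Fisher's exact test; 1905 and 1849 calls).

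In *Hoxc* the called tiles were spread over the window. The tile at chr15:102860001-102862500, shortly before the *Hoxc4* start site, went from 50.1% to 91.1%, but on 4 CpGs with 75 and 58 calls. The tile at chr15:102847501-102850000 went from 70.4% to 94.4% on 3 CpGs, and that at chr15:102822501-102825000 from 44.3% to 61.9% on 8. The tiles at chr15:102775001-102777500 and chr15:102780001-102782500 went from 58.7% to 80.1% on 13 CpGs and from 42.4% to 65.0% on 14 CpGs. The tile that was highest in *Rex1*-high cells, at chr15:102815001-102817500, had 77.2% and 77.4% on 3 CpGs with 22 and 28 calls. In *Hoxa* the largest differences lay before *Hoxa5*, in the stretch with *Hoxa2*, *Hoxa3* and *Hoxa4*. The tile at chr6:52102501-52105000, also the highest *Hoxa* tile in *Rex1*-high cells, went from 52.2% to 77.9% on 11 CpGs and that at chr6:52135001-52137500 from 42.7% to 68.1% on 10 CpGs. The tiles at chr6:52110001-52112500 and chr6:52150001-52152500 went from 32.7% to 46.1% on 19 CpGs and from 28.98% to 43.1% on 16. Of the 20 tiles after the *Hoxa5* start site, 3 were called (75.5% of all tiles were). Their largest difference was 14.4 points, from 33.7% to 48.1% on 19 CpGs at chr6:52172501-52175000.

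Of the 14 promoters placed with at least 5 listed positions, 11 had 3 or more CpGs measured in both libraries. Their median level was 11.9% in *Rex1*-high and 16.8% in *Rex1*-low cells, with a median difference of 1.249 points, against 11.9% and 12.7% and a median difference of 0.977 over the 10945 promoters placed in the same way. The level was under 20% in both libraries at 9 of the 11 (6 of 11 on pooled calls), and at 76.4% of all placed promoters. By Fisher's exact test with the same rule as for tiles, 1 of the 11 was called more methylated in *Rex1*-low cells (background 6.79%) and 0 less methylated (background 0.329%). With the 4 promoters of the added rule, 13 had enough CpGs and 2 were called.

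The called promoter was that of *Hoxd12*, a posterior gene of limb and genital development. Its 13 CpGs went from 33.1% to 44.6%. The pooled calls were 42.5% methylated (95% Wilson interval 38.04% to 47.0%) of 464 in *Rex1*-high and 58.7% (54.1% to 63.1%) of 460 in *Rex1*-low cells, with an adjusted p = 2.91e-06 by Fisher's exact test. Its 4 CpGs at 170, 132, 125 and 122 bases before the start site, none in an MspI or TaqI site, went from 44.2% to 64.6%, from 5.00% to 39.02%, from 22.5% to 43.2% and from 8.61% to 22.7%. The 3 CpGs between 70 and 52 bases before the start site had 10% to 20% in *Rex1*-high and 0% to 14.3% in *Rex1*-low cells, on 5 to 10 calls each. Near and after the start site, the CpG at 37 bases before it, in an MspI site, went from 49.6% to 84.7%, and the CpG 10 bases after it, outside both sites, from 26.5% to 39.5% on 49 and 114 calls. Higher levels in *Rex1*-low cells were thus found on both sides of the start site.

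The other called promoter, *Hoxd4*, was placed by the added rule and went from 61.4% to 83.6% on 3 CpGs, with 85 and 60 calls (adjusted p = 0.00295 by Fisher's exact test). *Hoxb8*, a trunk gene, had 43.3% and 52.5% on 4 CpGs (adjusted p = 0.0836 by Fisher's exact test). *Hoxc4*, also placed by the added rule, had 31.4% and 37.7% on 4 CpGs (adjusted p = 0.249 by Fisher's exact test). Neither test passed. *Hoxb8* and *Hoxd12* were thus the promoters over 20% among the 11.

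The remaining 9 promoters were low. *Hoxa13*, which patterns digits and the urogenital tract, was the lowest in *Rex1*-high cells, with 7.41% and 7.28% over 18 CpGs. *Hoxd1*, the most anterior gene of its cluster, had 7.45% and 7.90% over 22 CpGs, and *Hoxd3* had 8.49% and 8.40% over 7. *Hoxd11* had 9.80% and 12.3%, *Hoxd10* 15.6% and 16.8%, and *Hoxd9* 19.3% and 19.2%. *Hoxa6* had 11.5% and 12.7% over 23 CpGs. *Hoxa5*, a gene of lung and skeletal patterning, had 11.9% and 17.2% over 26 CpGs (adjusted p = 0.122 by Fisher's exact test), and *Hoxd13* had 13.2% and 19.7% over 4 CpGs with 85 and 199 calls. All 9 had a difference under 7 points.

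**Figure D4:**
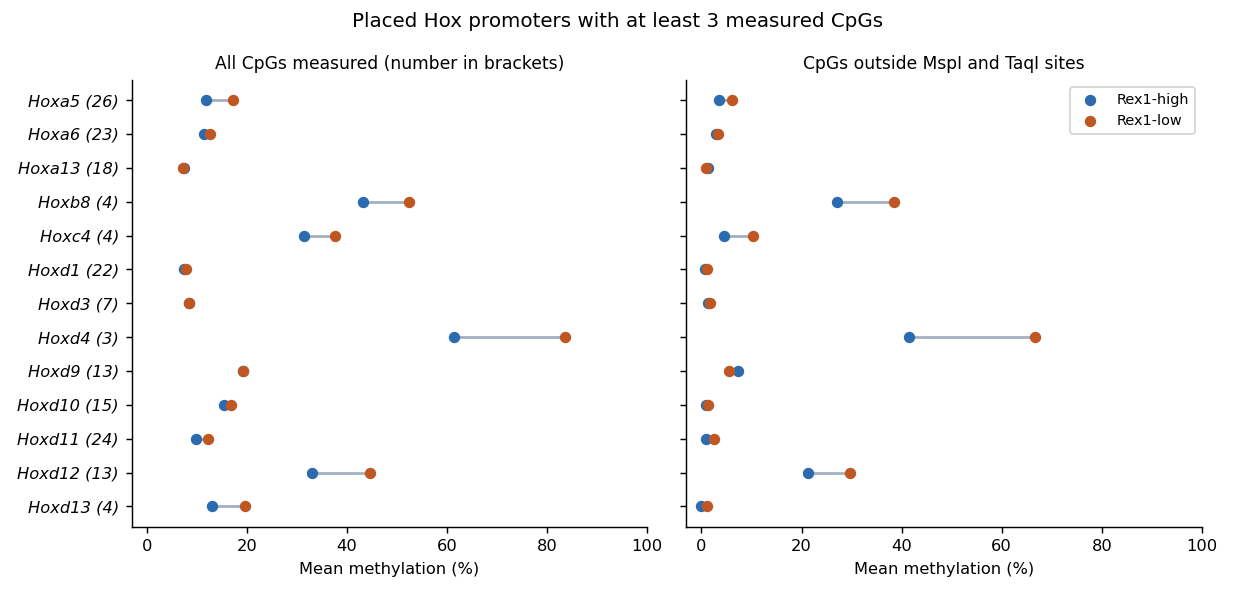
Mean methylation (horizontal axis, percent) of the 13 placed *Hox* promoters with at least 3 measured CpGs, over all their CpGs (left, number in brackets) and over CpGs outside MspI and TaqI sites (right); blue, *Rex1*-high; orange, *Rex1*-low. *Hoxd4*, *Hoxd12* and *Hoxb8* had the highest levels in each library in both panels, on 1, 9 and 2 CpGs in the right panel. In the left panel *Hoxc4* (31.4% and 37.7%) overlaps *Hoxd12* (33.1% and 44.6%).

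CpGs in the restriction sites themselves read far higher than the rest of the promoters. In the placed *Hox* promoters 39 of 180 CpGs lay in a CCGG or TCGA, and their mean was 56.6% in *Rex1*-high and 64.5% in *Rex1*-low cells. The other 141 CpGs had means of 4.17% and 5.93% and medians of 0% and 1.85%, and 127 of them were under 20% in both libraries. The same split held over all placed promoters, where 29161 CpGs in these sites had 53.7% and 57.6% and 117534 others had 1.72% and 2.71%. A CpG could have 2 deposited rows, and rows that disagreed (at least 80% in one and at most 20% in the other) were found at 46.2% of the site CpGs and 0% of the others in *Hox* promoters, and at 48.2% and 0.0757% over all placed promoters. Fragment ends were filled in with new nucleotides during library preparation, and the part of that step in these levels was not tested.

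**Figure D5:**
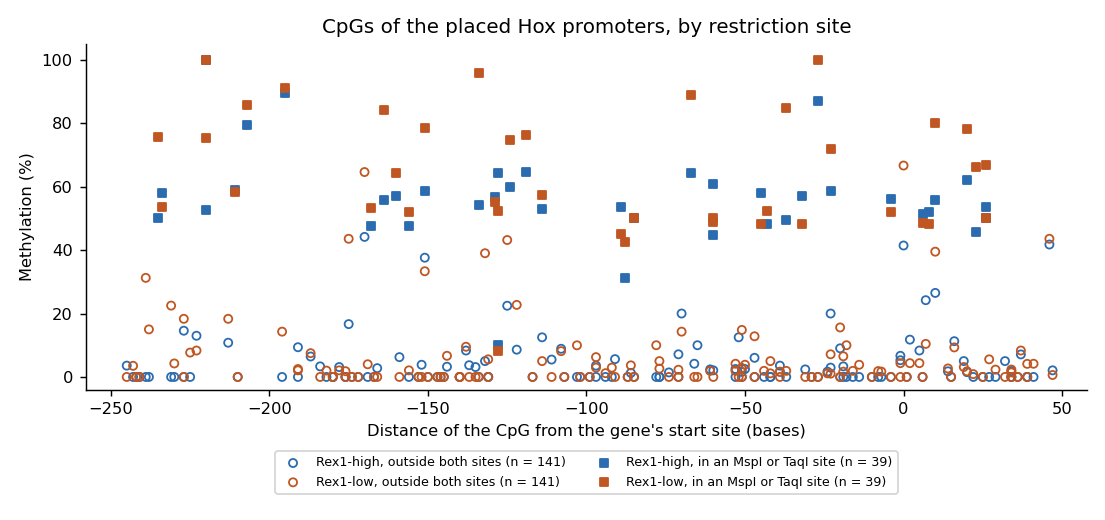
Methylation (vertical axis, percent) of the 180 CpGs of the placed *Hox* promoters against distance from the start site (horizontal axis, bases); filled squares, CpGs in an MspI or TaqI site; open circles, all others; blue, *Rex1*-high; orange, *Rex1*-low. Site CpGs had medians of 55.8% and 58.3% and the others 0% and 1.85%.

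Outside these sites most *Hox* promoters were close to unmethylated. *Hoxd1* had 0.806% and 1.09% over 19 CpGs, *Hoxa13* 1.36% and 0.997% over 16, *Hoxd11* 0.890% and 2.57% over 20, and *Hoxd10* 0.971% and 1.33% over 11. *Hoxa5* had 3.48% and 6.15% over 22 CpGs, and *Hoxa6* 2.83% and 3.31% over 19. *Hoxd12* kept 21.2% and 29.7% over 9 CpGs, which is a difference under 10 points, so that 0 of the 10 promoters with at least 3 such CpGs passed the rule. The sites could be recognised only where a promoter sequence was placed, so the window and tile values above include them. In the windows 496 CpGs (12.2%) had disagreeing rows, against 8.84% of all CpGs. Without such CpGs, each of the 48 called tiles still differed by at least 10 points. Disagreeing rows were found at only 46.2% of the site CpGs in *Hox* promoters. Leaving them out therefore does not remove all site CpGs from the tiles.

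The wider promoter window, from 2 kb before to 500 bp after the start site, held 3 or more CpGs for all 18 placed genes. Methylation there was higher in *Rex1*-low cells for 17 of 18, with a median difference of 3.28 points, and 8 were under 20% in both libraries. These 2 counts were not made over all placed promoters in the wider window. Over the shorter promoter sequences, 7388 of 10945 were higher in *Rex1*-low cells and 76.4% were under 20% in both. Over all promoters placed with at least 5 listed positions, the median difference in the wider window was 1.75 points. The *Hox* median also counts the 4 genes of the added rule, so these medians are over unlike sets. *Hoxb4*, which is expressed in the hindbrain and in blood stem cells, went from 28.04% to 55.9% on 11 CpGs with 213 and 115 calls, the same CpGs as those of the tile with its start site. *Hoxd4* went from 56.4% to 83.9% on 13 CpGs, *Hoxa7* from 47.3% to 60.6% on 6 and *Hoxd12* from 27.8% to 39.3% on 36. The posterior genes *Hoxa10* and *Hoxa11* had 15.0% and 20.02% over 19 CpGs and 16.8% and 18.4% over 40. *Hoxb1*, the exception, had 39.7% and 38.99% on 6 CpGs. These wider windows were not tested on their own.

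Genes that border the clusters, related homeobox genes and partners of *Hox* proteins were compared with the same placed promoters. Of 11 neighbours, 5 promoters were placed with enough CpGs, with a median of 13.2% in *Rex1*-high and 12.4% in *Rex1*-low cells. *Evx2*, the homeobox gene next to *Hoxd13*, was called less methylated, from 23.4% to 0% (less methylated promoters, background 0.329%). This rested on 4 CpGs with 98 and 22 calls and on the added placement rule. Of the 4, 1 CpG in a restriction site went from 64.3% to 0%, and the 3 others from a mean of 9.73% to 0%. The wider *Evx2* window, from 2 kb before to 500 bp after the start site, went the other way. It had 24.6% and 26.9% on 23 CpGs with 708 and 893 calls. The 2 ParaHox promoters measured, *Gsx1* and *Gsx2*, and 3 promoters of TALE homeodomain partners (*Meis1*, *Meis3* and *Pbx2*) were not called, and neither were 11 promoters of 10 Polycomb and trithorax genes. Of all placed promoters 6.79% were called more and 0.329% less methylated. The absence of calls in sets this small is thus no result about these genes. The ParaHox promoters were above the median of all placed promoters, with 12.8% and 17.9% at *Gsx1* and 27.8% and 30.5% at *Gsx2*. Outside MspI and TaqI sites both were low, with 0.333% and 1.87% at *Gsx1* (10 CpGs) and 0% and 0.641% at *Gsx2* (2 CpGs). Such CpGs had 1.72% and 2.71% over all placed promoters. The TALE promoters had a median of 10.8% and 12.5%, and the Polycomb and trithorax promoters 10.5% and 12.7%, near the 11.9% and 12.7% of all placed promoters.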

How the data were processed

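RRBS was analysed for 1 *Rex1*-high and 1 *Rex1*-low library. The authors digested DNA with TaqI and MspI, aligned with Bismark (version 0.7, from the submitters' processing notes, which name mm9 as the genome build), and deposited per row the methylated calls over all calls, with a score of 1000 times their ratio. The deposited score was not used. A CpG had 1 or 2 rows without a named strand. Rows with at least 5 calls were kept, their fractions were averaged per CpG, and CpGs kept in both libraries were used. Tiles of 2500 bp with at least 3 CpGs were averaged over CpGs. Summed calls were compared by Fisher's exact test (two-sided), adjusted by Benjamini-Hochberg over all tiles, over all CpGs, and for placed promoters over promoters and tiles together. A call required an adjusted p under 0.05 and, for tiles and promoters, a change of at least 10 points. Intervals are 95% Wilson intervals.

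No mm9 genome or annotation was used. RefSeq promoter sequences (GRCm38.p6) were placed where all listed positions fell on their CpGs, at 1 best place with at least 5 positions, searching the cluster and its flanks for *Hox* genes and neighbours and the chromosome for others. Of 32851 sequences 12522 were placed, and 323 (2.58%) on the strand opposite to RefSeq's were dropped, a step added after the data were seen. The spacing between placed *Hox* promoters equalled RefSeq's except for *Hoxa13*, off by 5 bases. Gene order came from RefSeq.

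The members and gene lists were chosen with earlier results of these data known. The genes described in full were, per cluster, the promoter with the largest change and with the lowest *Rex1*-high level, all promoters at or above 20% in either library and all called ones. The tiles were, per window, the one with the largest change, the highest in *Rex1*-high cells and up to 5 called ones by size. Tests and placement were tested on simulated data. The software was Python 3.11.15 with SciPy 1.17.1, NumPy 2.4.6, numba 0.67.0, pandas 2.3.3 and matplotlib 3.10.9.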

Additional observations from a re-analysis of the deposited data

How the results depend on the processing

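Across 57 recomputed values, 35 stayed within the spread set for them, 22 moved and 0 reversed. For counts this spread was a ratio of raw counts, whatever number of tiles, CpGs or promoters was left. A count within it could thus be a different share. No paired analysis was possible because each state has 1 library. The causes of the moves were not tested. The window increase of 5.18 points became 3.75 from medians, 3.25 from pooled calls, 6.55 and 7.66 with minimums of 10 and 20 calls, 6.23 with rows merged first and 5.55 without CpGs whose rows disagreed. The flank increase of 13.8 points became 20.9 from medians, 5.88 from pooled calls and 12.2 with a minimum of 20 calls, so it stayed above that of the windows under each shared alternative. The tiles called more methylated numbered 88 of 152 without a minimum change (80.4% of all tiles). Under the 8 other settings they numbered from 32 to 71. The 32 were of 111 tiles with a minimum of 20 calls (55.9% of all tiles). The 71 were of 246 tiles of 1000 bp (71.7% of all such tiles). The tiles called less methylated numbered 4 without a minimum change and 0 under the 8 others. CpGs called more methylated numbered 296 of 3227 with a minimum of 10 calls (19.2% of all CpGs). With a minimum of 20 calls they numbered 179 of 1569 (19.3% of all CpGs), which counted as within the spread against 187 of 4081. They numbered 101 of 4081 when the deeper library was thinned to equal depth (6.72% of all CpGs). CpGs called less methylated numbered 28 and 6 with minimums of 10 and 20 calls, 2 with rows merged, 2 without disagreeing rows and 1 after thinning, against 18. The number of *Hox* promoters under 20% in both libraries was 4 of 7 with a minimum of 20 calls, against 9 of 11. It was 6 of 11 on pooled calls, 6 of 11 with a minimum of 10 calls and 7 of 11 with rows merged first. Called promoters numbered 3 with a minimum of 10 calls and, in settings chosen after the data were seen, 2 with at least 3 listed positions and 0 without CpGs of MspI and TaqI sites, against 1. Tiles with 3 CpGs and promoters with 3 or 4 CpGs rest on few fragments.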

Other observations

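The borders of the clusters differed. The first 50 kb beyond the *Hoxd* window on the *Hoxd13* side held 166 CpGs. Their median was 2.22% in *Rex1*-high and 3.96% in *Rex1*-low cells. Most lay in the tiles starting at -7.5, -5 and -2.5 kb from the window start, with 72, 65 and 13 CpGs. The tiles at -10, -20, -22.5 and -37.5 kb, on 3 or 4 CpGs each, were higher. They went from 41.0% to 87.9%, 30.1% to 51.7%, 70.8% to 93.1% and 76.2% to 88.4%. The next 50 kb had medians of 0% and 1.35% over 49 CpGs, of which 36 lay in the tile with the *Lnpk* start site. On the *Hoxd1* side the first 50 kb had medians of 59.7% and 91.3% over 24 CpGs. The first 50 kb beyond *Hoxa13* had medians of 8.39% and 14.9% over 148 CpGs, whereas the first 50 kb on the other side of *Hoxa* had 64.3% and 81.7% over 33. *Hoxb* was bordered on both sides by methylated sequence, with medians of 53.3% and 80% before *Hoxb13* and 68.1% and 86.4% beyond *Hoxb1*. *Hoxc* had 48.7% and 75.4% on the *Hoxc13* side and 40.0% and 44.3% beyond *Hoxc4*. These border values were chosen after the data were seen and were not tested.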
